A study of Homo sapiens with 27 samples.

Results

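The mRNA levels of 39 genes for lysosomal proteins were followed while U2OS cells, a human osteosarcoma line, grew from sparse to overcrowded culture with or without shRNAs against MMP2. The genes were chosen by name as lysosomal hydrolases, membrane proteins, proton pump subunits and the transcription factor TFEB, with the cysteine cathepsins left out, by a rule that uses no measured value but was set with earlier results of these data known. They are 39 of the 55882 gene symbols counted in the 27 libraries, and all 39 had reads in every library, from 65 counts (IDUA) to 70016 (PSAP). Every one passed the low-count filter in each of the 16 comparisons.

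Stable lines of 3 kinds were sequenced as poly(A) RNA. The control (WT in the sample labels) carried the empty pLKO.1 vector, and MMP2sh1 (MMP2KD_23) and MMP2sh2 (MMP2KD_26) each carried the same vector with an shRNA against MMP2, a secreted matrix protease that is also found in the nucleus of these cells. Cells were plated at 30% confluence, which is the subconfluent day −2 (Proliferating in the labels), and were collected then, at confluence (day 0) and when overconfluent (day +2), with 3 libraries in each of the 9 groups. Only 1 stable line stands for the control and 1 for each hairpin, so a difference between lines cannot be told apart from a difference between the transduced populations.

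Libraries held 33580129 to 59374327 counts on genes. MMP2 was at 222, 225.9 and 244 CPM (read counts scaled to library size with TMM factors) in the 3 control libraries at day −2, at 33.9, 39.3 and 46.7 in MMP2sh1 and at 135, 140.03 and 158 in MMP2sh2. At day 0 it was at 317 to 330 CPM in control, 53.7 to 65.6 in MMP2sh1 and 152 to 159 in MMP2sh2. At day +2 it was at 504, 483 and 494 CPM in control, 97.9, 94.1 and 101 in MMP2sh1 and 278, 291 and 269 in MMP2sh2. At each day MMP2 was thus lower in both hairpin lines than in control, without overlap. MMP2 alone does not check the day labels. The osteosarcoma and mesenchymal markers VIM, COL1A1, SPARC, FN1, RUNX2 and CDH11 were detected in every library, while COL1A2 (at most 0.681 CPM) and TWIST1 (at most 0.0331 CPM) were at or near 0. The 8 markers summed to 3847 to 4149 CPM in control at day −2 and 6321 to 7182 at day +2, to 3626 to 4379 and 7757 to 8058 in MMP2sh1, and to 4164 to 4668 and 6231 to 6557 in MMP2sh2. The sum of these markers was thus higher at day +2 in each line, as the summed share of the 39 genes was. Over all 27 libraries VIM ranged only from 688 to 833 CPM, while FN1 ranged from 393 to 3766.5 CPM. The part of these markers in the result on the 39 genes was not tested. Macrophages are rich in lysosomes, and the 10 macrophage markers examined summed to 1.36 to 3.65 CPM in the 27 libraries, with CD68 at no more than 0.0865 CPM. Their sum was 2.04 to 2.16 CPM in control at day −2 and 1.36 to 1.959 CPM at day +2. The 5 epithelial markers, mostly CLDN4, summed to 31.9 to 70.7 CPM. MMP2sh1 lay above control in their sum at each day, as given with its results. The share of counts on mitochondrial genes, 4.16% to 7.15%, was 4.16% to 5.30% in control at day −2 and 5.49% to 6.37% at day +2, and its part in the results below was not tested.

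Lysosomes are acidic organelles in which hydrolases break down proteins, glycans, lipids and glycogen delivered by endocytosis and autophagy. A vacuolar proton pump keeps the lumen acidic, heavily glycosylated membrane proteins line it, and transporters return the products to the cytosol. TFEB, which the growth-regulating kinase complex mTORC1 keeps in the cytoplasm of fed cells, binds a sequence with the core CACGTG in the promoters of many lysosomal genes when it enters the nucleus. Loss of single hydrolases or transporters causes the lysosomal storage diseases.

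The CACGTG core was searched in the promoters of the 39 genes, because a shared sequence could be read beside the changes in mRNA. The window ran from 250 bases before to 50 bases from the start site of each gene's canonical transcript (GENCODE release 44 on GRCh37, the build the authors name hg19). CACGTG, a palindrome, stood in 14 of the 39 windows (35.9%), against 1736 of 19812 windows of all protein-coding genes (8.76%). The core is known from promoters of lysosomal genes and the 39 were chosen as such, so a higher share is not an independent result. TCACGTG, which contains CACGTG, was found on either strand in 12 of 39 (30.8%, against 4.82% of all). LAMP1 had 6 copies of CACGTG, and 8 of the 39 windows (20.5%, against 0.969% of all) had more than 1. A selection of the sites is shown 5′ to 3′ on the strand of the gene, to let the bases around the core be compared, with the CACGTG core in capitals and 10 bases on each side. The number after each gene is the distance of the first capital base from the start site, which counts as base 1. All sites of CD63, CTSD, GAA and NEU1 are given, the 2 of LAMP1 nearest the start site and the nearest of the 2 of MCOLN1 and of CLCN7. Those of CTSA, HEXA, NAGLU, SGSH, GALNS, ATP6V0D1 and ATP6V1H are left out.
LAMP1, −28, chr13:113951516-113951541, plus strand: cccgcgggatCACGTGacgcccgggc
LAMP1, −1, chr13:113951543-113951568, plus strand: cggcgcagctCACGTGacaagcgctg
CD63, −180, chr12:56122958-56122983, minus strand: gggtaggggcCACGTGgccctggccg
CTSD, −47, chr11:1785189-1785214, minus strand: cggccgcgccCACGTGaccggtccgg
GAA, −76, chr17:78075294-78075319, plus strand: gaggccgcgtCACGTGacccaccgcg
GAA, −31, chr17:78075339-78075364, plus strand: tcccgccggtCACGTGacccgcctct
NEU1, −126, chr6:31830709-31830734, minus strand: gctgcgtgatCACGTGggaggagatg
MCOLN1, −14, chr19:7587486-7587511, plus strand: gctaccgggtCACGTGaccgaggcac
CLCN7, −27, chr16:1525041-1525066, minus strand: cgtcgcgcgtCACGTGgccgccggcg
The windows of FUCA1, IDUA, IDS, NPC1, NPC2, PSAP, LAMP2, HGSNAT and TFEB held no CACGTG, which says only that these letters are not in those windows.

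In control cells, the 39 genes together took 0.422%, 0.427% and 0.438% of the counts on genes in the 3 libraries at day −2. They took 0.425%, 0.427% and 0.429% at day 0 and 0.671%, 0.668% and 0.658% at day +2. The share at day +2 was thus above every earlier library, and days −2 and 0 overlapped. The same holds within MMP2sh1, where the shares were 0.396%, 0.434% and 0.433% at day −2, 0.384%, 0.387% and 0.405% at day 0 and 0.648%, 0.634% and 0.624% at day +2. In MMP2sh2 they were 0.441%, 0.452% and 0.4596%, then 0.421%, 0.425% and 0.423%, then 0.681%, 0.689% and 0.653%. The day +2 libraries were again the highest of their line, and here day 0 lay below day −2. In CPM with TMM factors, the sum of the 39 genes was lower at day 0 than at day −2 in each line, without overlap. In control it was 4335 to 4436 CPM at day −2 and 4130 to 4199 at day 0. It was 4087 to 4583 and 3760 to 3996 CPM in MMP2sh1, and 4540 to 5059 and 4219 to 4296 in MMP2sh2. In bulk RNA, a change in the make-up of the culture and a change in RNA per cell cannot be told apart.

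**Figure D1:**
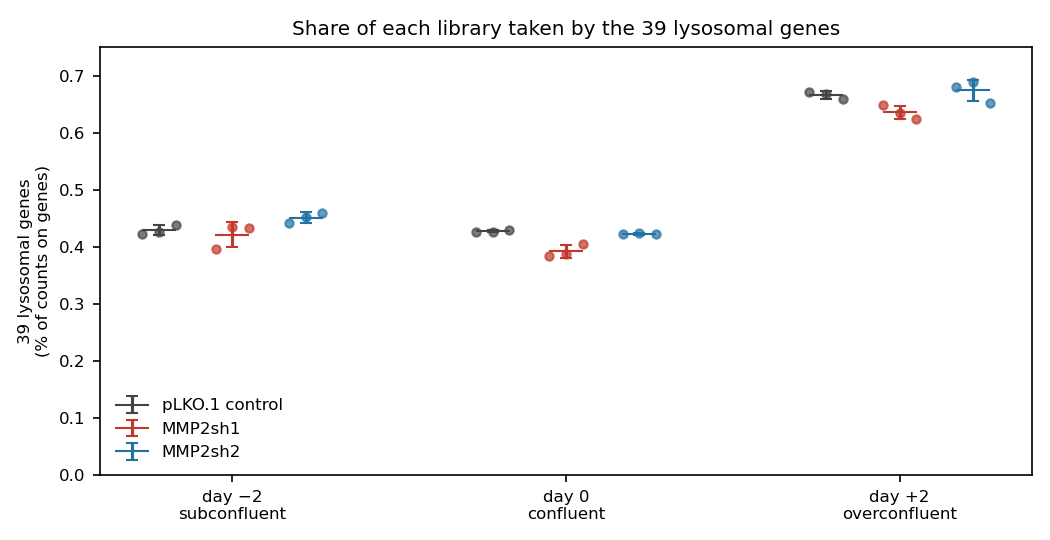
Percent of all gene counts taken by the 39 lysosomal genes (y axis) at each day of culture (x axis). Points are libraries, and the bar and whiskers are the mean and SD of 3 libraries for each line. Every day +2 library lies at 0.624% or above, and every earlier library at 0.460% or below.

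Per kilobase of canonical transcript, the most abundant of the 39 mRNAs in control cells at day +2 was that of CD63, a tetraspanin of late endosomes and lysosomes, at 821 ± 27.5 CPM per kb (SD, n = 3). It was followed by NPC2, the soluble protein that takes cholesterol out of the lumen, at 609 ± 27.4, and by PSAP, the precursor of the saposins that help hydrolases to reach sphingolipids, at 542 ± 17.3. LAMP1, a major glycoprotein of the lysosomal membrane, stood at 217 ± 9.33 and PPT1, which removes fatty acids from proteins, at 101 ± 0.453 CPM per kb. At day −2 the order at the top was different, with PSAP at 346 ± 3.63 and CD63 at 340.3 ± 22.3, which differed by less than the larger of their SDs, and NPC2 at 233 ± 9.58 CPM per kb. TFEB was the lowest at both days, at 1.42 ± 0.0139 and 3.99 ± 0.402 CPM per kb. FUCA1, which removes fucose from glycoproteins and glycolipids, went from rank 32 to rank 23 of 39.

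Over the whole expansion of control cells, from day −2 to day +2, 30 of the 39 genes passed the test (76.9%), in a comparison in which 56.8% of the 19099 genes tested did. 29 rose (74.4%, against 28.1% of all genes) and 1 fell, NEU1 (2.56%, against 28.6%). Their median log2 fold change was 0.48, against 0.03 over all genes tested. 13 of the called genes changed by more than 1.5-fold and 6 by more than 2-fold. The shares of all genes past these folds are not given here, so these counts only describe the 39. The same comparison within MMP2sh1 gave 31 calls (background 54.9%), 27 up and 4 down (background 27.3% and 27.7%), with a median of 0.37. MMP2sh2 gave 28 calls (background 54.7%), 25 up and 3 down (background 27.7% and 27.1%), with a median of 0.34. In each line these counts are out of all 39.

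By role, the rise in control took in 3 of 4 membrane glycoproteins, all 3 proteases, 6 of 8 glycosidases and 7 of 8 enzymes of glycosaminoglycan breakdown. It took in 5 of 7 lipid and phosphate hydrolases, both sterol export proteins and TFEB. It took in 1 of 3 channels and transporters (CLCN7) and 1 of 3 proton pump subunits (ATP6AP1). The calls of ACP2 and ATP6AP1 were lost with all 27 libraries in 1 fit and without day −2 replicate 1 or day +2 replicate 2, and that of ACP2 also without day −2 replicate 3 or day +2 replicate 1 and with DESeq2 (0.14 to 0.24 and 0.10 to 0.17), and the other 28 held in every alternative. The genes that did not pass were LAMP1, GLA, ARSB, PPT1, LIPA, MCOLN1, CTNS, ATP6V0D1 and ATP6V1H, with log2 fold changes from −0.17 (ARSB, 95% interval −0.32 to −0.02) to 0.16 (MCOLN1, 95% interval −0.05 to 0.36).

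The largest rise was that of IDUA, which removes iduronic acid from heparan and dermatan sulfate. IDUA was at 3.26, 3.24 and 3.19 CPM in the 3 control libraries at day −2, at 5.44, 5.31 and 5.79 at day 0 and at 10.9, 13.4 and 13.6 at day +2. The 3 days did not overlap, and the log2 fold change over the whole expansion was 1.95 (SE 0.14, adjusted p = 2.9e-12), a 3.87-fold rise from a low level. FUCA1 was at 12.3, 12.9 and 11.99 CPM at day −2, 18.4, 18.4 and 19.1 at day 0 and 42.3, 47.3 and 50.6 at day +2. It too rose at each step without overlap, by 1.90 (SE 0.08, adjusted p = 7.5e-17) in all. NPC2 rose from 189.7, 184 and 199.7 CPM through 256, 238 and 252 to 475, 519 and 505, a log2 fold change of 1.37 (SE 0.05, adjusted p = 2.3e-18).

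TFEB itself was low, at 3.34, 3.31 and 3.28 CPM in control at day −2, 4.5995, 3.999 and 5.37 at day 0 and 8.24, 9.83 and 9.89 at day +2. The days did not overlap, and it rose by 1.48 (SE 0.15, adjusted p = 2.5e-09) over the expansion. The mRNAs of its relatives TFE3 and MITF did not rise with it. TFE3 fell slightly, from 156 ± 0.987 CPM at day −2 to 142 ± 1.74 at day +2 (log2 fold change −0.15 (SE 0.05, adjusted p = 0.0088)), and MITF fell from 15.02 ± 2.17 to 12.2 ± 2.35 CPM (−0.32 (SE 0.13, adjusted p = 0.035)), with overlapping libraries.

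The step from day −2 to day 0 gave a different picture from the step after confluence. At day 0, 17 of the 39 had changed (background 35.5%), 6 up (background 16.4%) and 11 down (background 19.1%), and the median of the 39 was −0.01 on the log2 scale. From day 0 to day +2, 32 of the 39 were called, all of them upward (82.1%, against 41.4% of all genes called and 21.3% called higher), and 0 fell (background 20.1%), with a median of 0.44 against 0.01 over all genes tested. 15 of the 32 rose by more than 1.5-fold, a count again without the share of all genes beside it. The 7 that did not pass in this step were NEU1, GLA, ARSB, PPT1, LIPA, MCOLN1 and ATP6V1H. Both steps use the day 0 libraries, with opposite sign, so a fall in the first and a rise in the second are not independent of each other.

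10 genes fell at the first step and rose at the second, which were LAMP1, CD63, CTSA, CTSD, IDS, SMPD1, PSAP, NPC1, ATP6V0D1 and ATP6AP1. The share of all genes tested that fell and then rose is not given here. With the day 0 libraries in both steps, this count only describes the lysosomal genes. NPC1, the membrane protein that accepts cholesterol from NPC2, had the largest fall. NPC1 was at 88.2, 96.4 and 93.9 CPM at day −2, 70.4, 74.6 and 70.99 at day 0 and 121, 108 and 112 at day +2. All 3 days were apart, with the confluent cells lowest, and the steps were −0.36 (SE 0.05, adjusted p = 3.4e-06) and 0.66 (SE 0.05, adjusted p = 1.8e-11). NPC2 went the other way at the first step, by 0.38 (SE 0.05, adjusted p = 2.4e-07). ATP6V0D1, a subunit of the membrane sector of the proton pump, fell by −0.32 (SE 0.06) and rose by 0.35 (SE 0.06), so that days −2 and +2 overlapped.

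LAMP1 was at 543, 563 and 563 CPM at day −2, 471, 484 and 483 at day 0 and 615, 569.8 and 574 at day +2. The confluent libraries were the lowest and the overconfluent ones the highest, with a fall of −0.21 (SE 0.04, adjusted p = 0.00012) and then a rise of 0.30 (SE 0.04, adjusted p = 1.2e-06), and the whole expansion came to 0.06 (95% interval −0.03 to 0.15), which did not pass. CTSD, the aspartic protease cathepsin D, was at 78.1, 82.6 and 86.7 CPM, then at 68.9, 66.8 and 76.7, then at 116, 119 and 113. It fell by −0.22 (SE 0.06) and rose by 0.72 (SE 0.06, adjusted p = 4.6e-12), and here the overconfluent libraries lay above both earlier days. Of the exon bases of CTSD, 62.1% lie under other genes in GENCODE release 44, and of IDS 90.7%. Smaller parts lie so in other members, such as 35.7% in MAN2B1 and 27% in CLCN7. Reads there could have been discarded by the authors' counting, depending on their annotation, so the levels of these genes are uncertain.

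CD63 had the largest change of the second step. It was at 329, 281 and 330.5 CPM at day 0 and at 824, 872 and 823 at day +2, a log2 fold change of 1.43 (SE 0.05, adjusted p = 8e-20). Its fall at the first step (−0.15 (SE 0.05), with overlapping libraries) was not called without control day −2 replicate 1, day −2 replicate 2 or day 0 replicate 2 (−0.19 to −0.08 over the fits with 1 library left out), nor with all 27 libraries in 1 fit. PSAP, the most abundant of the 39 in CPM, fell from 940.03, 953 and 959.8 to 822, 866 and 859.9 and then rose to 1542, 1469.6 and 1453 CPM (0.81 (SE 0.04, adjusted p = 2.1e-16)). SMPD1, the acid sphingomyelinase, fell by −0.26 (SE 0.08), a call lost without day 0 replicate 1 (−0.33 to −0.21), and rose by 0.88 (SE 0.08). IDS, which removes sulfate from iduronic acid, fell by −0.22 (SE 0.05) and rose by 0.81 (SE 0.05).

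6 genes rose at both steps, namely IDUA, FUCA1, NPC2, TFEB, MANBA and ARSA. The share of all genes tested that rose at both steps is likewise not given here. The first step of IDUA was 0.77 (SE 0.17, adjusted p = 0.00056) and that of FUCA1 0.59 (SE 0.09, adjusted p = 8.5e-06). With NPC2, these held in every alternative, while the first-step rises of TFEB, MANBA and ARSA did not. TFEB (0.49 (SE 0.18, adjusted p = 0.034)) was not called with any one of the day −2 libraries or day 0 replicate 1 or 3 left out, nor with DESeq2 or without the low-count filter (0.37 to 0.59). MANBA, a beta-mannosidase (0.28 (SE 0.09)), lost its call without day −2 replicate 1, day 0 replicate 1 or day 0 replicate 2 (0.23 to 0.35). ARSA, which removes sulfate from sulfatide (0.24 (SE 0.08)), lost it without day −2 replicate 3 or day 0 replicate 3 (0.16 to 0.28). In the second step, TFEB rose by 1.01 (SE 0.15, adjusted p = 1.5e-06), ARSA by 0.74 (SE 0.07) and MANBA by 0.44 (SE 0.08), with no overlap and with no library that ended the call.

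**Figure D2:**
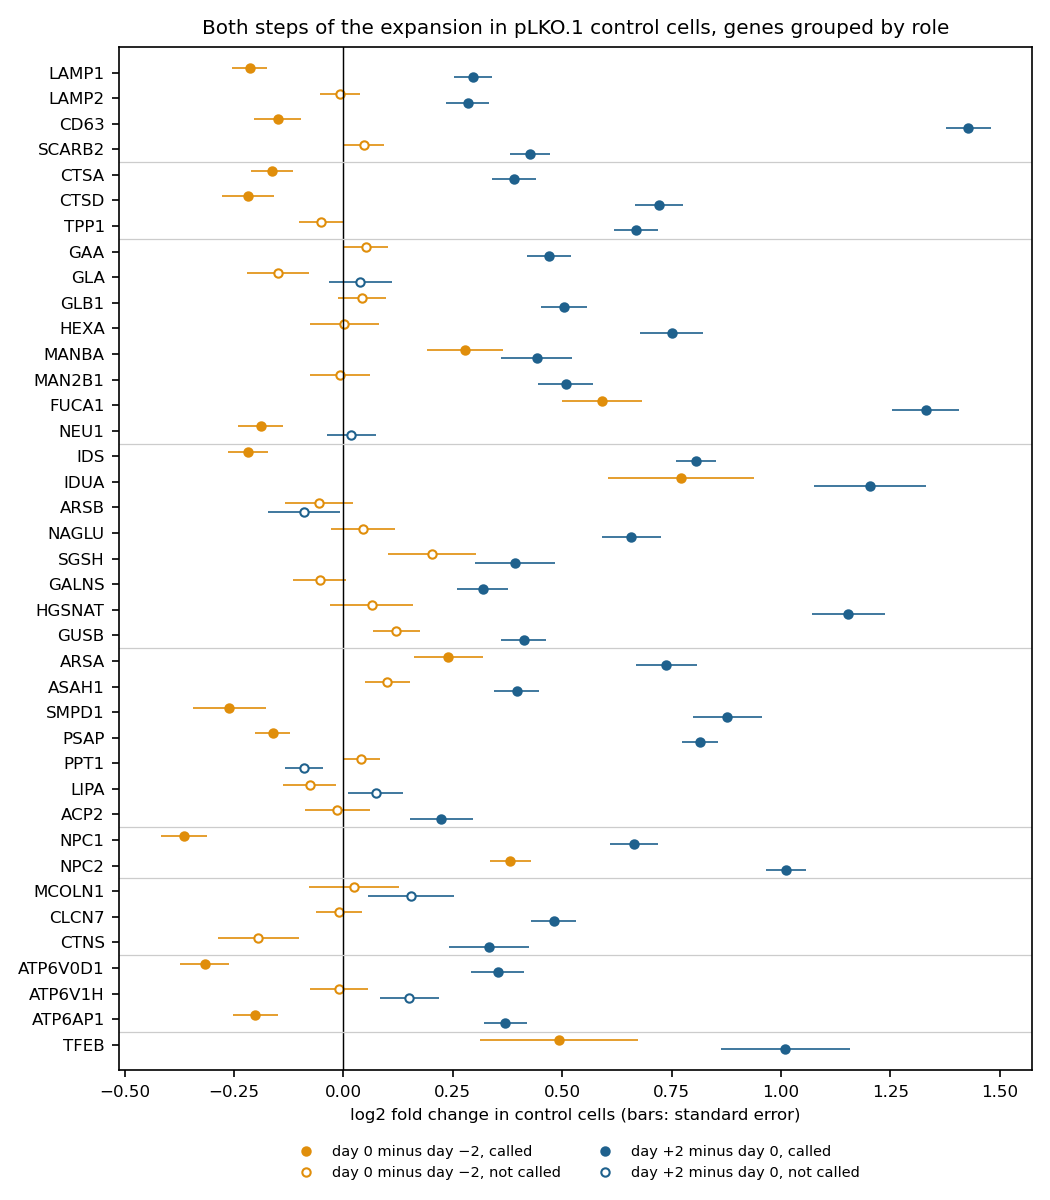
Log2 fold change (x axis) of each of the 39 genes (y axis, grouped by role) in control cells from day −2 to day 0 (orange) and from day 0 to day +2 (blue), with standard errors. Filled points are called at an adjusted p under 0.05; the orange points scatter on both sides of 0 while 32 of the blue points are called above it.

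The remaining 16 risers of the second step had not been called at the first. HGSNAT, which acetylates heparan sulfate at the lysosomal membrane, was at 14.6, 15.1 and 15.4 CPM at day −2, 16.7, 14.2 and 16.1 at day 0 and 36.99, 34.4 and 32.99 at day +2. The first 2 days overlapped and the third was apart (1.15 (SE 0.08, adjusted p = 1.1e-12)). HEXA, the alpha subunit of beta-hexosaminidase, rose by 0.75 (SE 0.07), TPP1, a tripeptidyl peptidase, by 0.67 (SE 0.05), and NAGLU, another heparan sulfate enzyme, by 0.66 (SE 0.07). The other 12 rose by 0.22 (ACP2) to 0.51 (MAN2B1). LAMP2 was at 164, 172 and 160.03 CPM at day −2, 168, 167 and 157 at day 0 and 211, 198 and 188 at day +2 (0.28 (SE 0.05, adjusted p = 1.9e-05)).

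NEU1, a sialidase, was the one gene that fell over the whole expansion. Its levels were 94.8, 96.7 and 95.8 CPM at day −2, 85.4, 87.8 and 78.7 at day 0 and 82.97, 89.2 and 82.1 at day +2. The fall came at the first step (−0.19 (SE 0.05, adjusted p = 0.0048)), and the second changed it by 0.02 (95% interval −0.09 to 0.13). NEU1 was also lower at day +2 than at day −2 in MMP2sh1 (−0.35 (SE 0.07)) and in MMP2sh2 (−0.28 (SE 0.06)). Both hairpin lines had calls for lower GLA, the alpha-galactosidase (−0.32 (SE 0.08) in MMP2sh1 and −0.31 (SE 0.08) in MMP2sh2), and for lower PPT1 (−0.18 (SE 0.06) and −0.16 (SE 0.06)). In control these were −0.13 (SE 0.07) and −0.07 (SE 0.04), which did not pass, and neither gene passed the test of the difference between lines. The PPT1 call in MMP2sh2 was lost without day −2 replicate 2, day +2 replicate 1 or day +2 replicate 2 (−0.21 to −0.13). The other fall in MMP2sh1, that of ATP6V0D1 (−0.17 (SE 0.07)), was lost without day −2 replicate 1 or 3 or day +2 replicate 1 or 2 (−0.21 to −0.11), with the replicate number as a block, without a low-count filter and with at least 10 counts in every library.

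The genes with the largest rises in control were also among those that rose in both hairpin lines. IDUA rose by 1.82 (SE 0.20) in MMP2sh1 and 1.59 (SE 0.13) in MMP2sh2, HGSNAT by 1.501 (SE 0.10) and 1.25 (SE 0.09), CD63 by 1.16 (SE 0.07) and 1.11 (SE 0.06), and TFEB by 0.85 (SE 0.16) and 1.28 (SE 0.16). FUCA1 and NPC2 rose as well, by 1.14 (SE 0.10) and 1.07 (SE 0.06) in MMP2sh1 and by 1.42 (SE 0.09) and 0.91 (SE 0.06) in MMP2sh2. IDS rose by 1.09 (SE 0.06) in MMP2sh1 and by 0.92 (SE 0.06) in MMP2sh2, against 0.56 (SE 0.05) in control. FUCA1, NPC2 and IDS are the genes whose rise differed from control in both hairpin lines by the interaction test given further on.

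**Figure D3:**
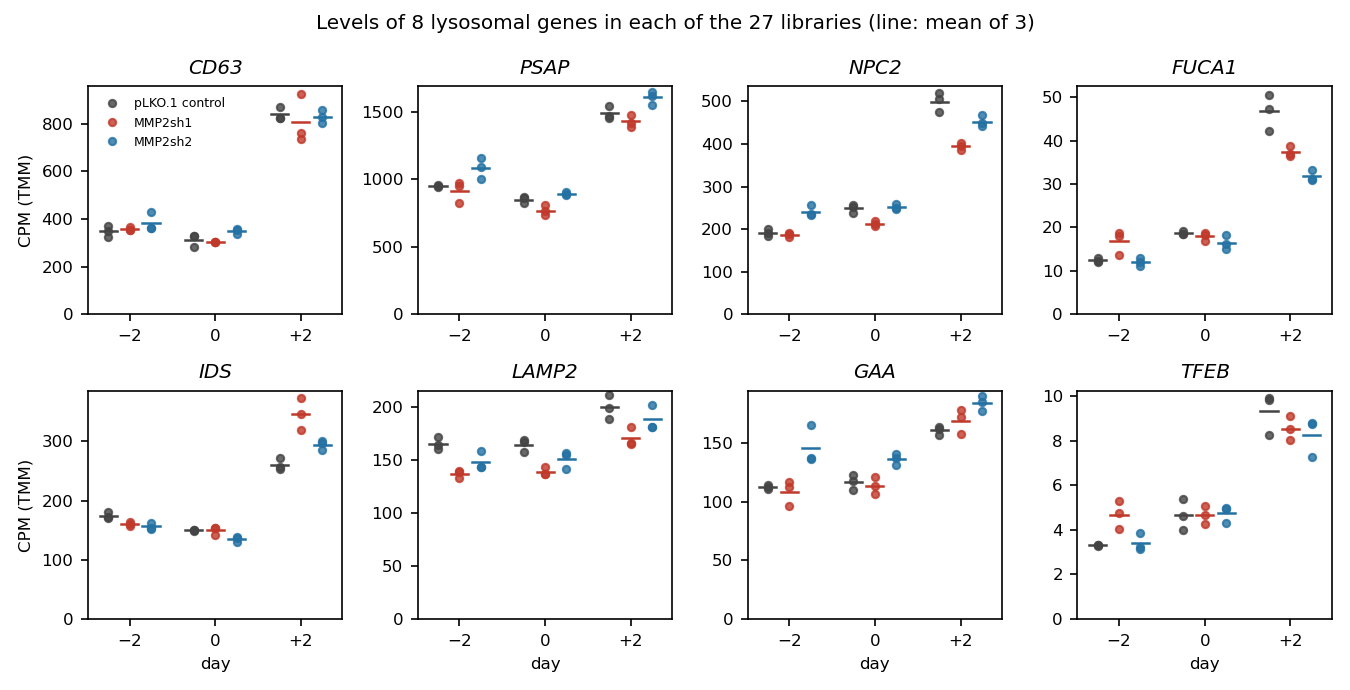
CPM with TMM factors (y axis, from 0) against day (x axis) for 8 of the genes, with a point for each of the 27 libraries and a line at the mean of 3. CD63, PSAP, NPC2, FUCA1, IDS and TFEB are highest at day +2 in each line, LAMP2 in MMP2sh1 lies below control at every day, and GAA in MMP2sh2 lies above it.

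Genes with and without a CACGTG in the promoter window were set side by side. From day 0 to day +2, 11 of the 14 with the core rose, with a median log2 fold change of 0.39 over all 14, and 21 of the 25 without it rose, with a median of 0.50. Over the whole expansion these counts were 9 of 14 (median 0.34) and 20 of 25 (median 0.51). All 6 genes that had risen at the first step were without the core, as were all but 1 (CD63) of the 6 that rose more than 2-fold over the expansion. These are descriptions of small groups, and no test was run.

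The rule of choice left out many lysosomal genes, and 118 genes in 6 further lists were examined for the same comparison. From day −2 to day +2 in control, 46 of the 116 tested rose (39.7%, against 28.1% of all genes) and 26 fell (22.4%, against 28.6%), with a median log2 fold change of 0.11. Of 22 other hydrolases and activators, 14 rose (63.6%) and 1 fell (4.55%). Those with the largest rises were ARSG, a sulfatase, with 1.87 (SE 0.22), SIAE, a sialate esterase, with 1.29 (SE 0.12), and CTBS, a chitobiase, with 1.12 (SE 0.11). Other genes cover 54.2% of the exon bases of SIAE, so its level is uncertain, as that of CTSD is. The same applies to ATP6V1C2 (32%), GNPTG (46%), ATG9A (48.6%) and WIPI1 (28.3%), named below. Of 22 other membrane proteins, 11 rose (50%) and 1 fell (4.55%), among them LAPTM5 (2.59 (SE 0.30), from 0.5702 ± 0.243 CPM), the peptide transporter ABCB9 (1.23 (SE 0.07)), the potassium channel TMEM175 (1.12 (SE 0.18)) and, as the one that fell, LAMP3 (−0.46 (SE 0.19)). Of 16 other proton pump subunits, 8 rose (50%) and 2 fell (12.5%). ATP6V1G2 (1.35 (SE 0.47)) and ATP6V1C2 (0.92 (SE 0.24)) rose from low levels, ATP6AP2 by 0.48 (SE 0.05), and ATP6V0E2 fell (−0.37 (SE 0.09)).

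Of 18 genes that tag and sort lysosomal enzymes, 3 rose (16.7%, against 28.1% of all genes) and 8 fell (44.4%, against 28.6%). GNPTG, a subunit of the enzyme that makes the mannose 6-phosphate tag, rose by 0.69 (SE 0.07) and the sorting receptor SORT1 by 0.58 (SE 0.06), while AP1M1, an adaptor subunit, fell (−0.53 (SE 0.05)), as did CLN8 (−0.48 (SE 0.11)) and NAGPA, which uncovers the tag (−0.47 (SE 0.08)). Of 19 regulators at the lysosome, 4 rose (21.1%) and 9 fell (47.4%). ZKSCAN3, known as a repressor of autophagy and lysosomal genes, rose by 1.29 (SE 0.12) and the small GTPase RRAGB by 0.60 (SE 0.12). RPTOR, the scaffold of mTORC1, fell from 113 ± 0.702 to 58.1 ± 1.397 CPM (−0.97 (SE 0.05, adjusted p = 9.3e-15)), FNIP2 fell by −0.80 (SE 0.09), MLST8 by −0.46 (SE 0.05) and MTOR by −0.34 (SE 0.05). Of 19 autophagy genes, 6 rose and 5 fell (31.6% and 26.3%), which is near the background of 28.1% and 28.6%. Those that rose were led by WIPI1 (1.18 (SE 0.08)), GABARAPL1 (0.79 (SE 0.06)) and the receptor NBR1 (0.67 (SE 0.05)). Those that fell included ATG9A (−0.55 (SE 0.05)), ATG16L1 (−0.34 (SE 0.07)) and ATG5 (−0.29 (SE 0.07)).

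The second question was whether the MMP2 hairpins moved these genes. Changes were small in both lines. Of the 39 genes, 19 were never called in MMP2sh1, 22 never in MMP2sh2 and 13 in neither, and across the 6 comparisons with control only 1 call exceeded 1.5-fold, that of IDUA in MMP2sh2 at day −2. The shares of all genes for these counts are not given here. At no day was a gene of the 39 called higher in one line and lower in the other. Between different days the lines did differ in direction. Among others, CTSA, NAGLU, ARSA, PSAP, NPC2 and MCOLN1 were called lower in MMP2sh1 at day 0 and higher in MMP2sh2 at day −2. Both lines are compared with the same control libraries, so calls they share are not independent.

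In MMP2sh1, 5 of the 39 genes differed from control at day −2 (12.8%, against 11.6% of all genes), 3 higher (background 5.42%) and 2 lower (background 6.14%). At day 0 there were 13 (33.3%, against 16.8%), 1 higher (background 8.26%) and 12 lower (30.8%, against 8.58%), and the median of the 39 was −0.07. At day +2 there were 7 (17.9%, against 14.8%), 2 higher (background 7.68%) and 5 lower (background 7.11%). The summed epithelial markers were also higher in MMP2sh1 without overlap, at 51.4 to 58.9 CPM against 42.2 to 44.5 in control at day −2, 46.7 to 47.9 against 36.1 to 38.7 at day 0 and 61.3 to 70.7 against 39.4 to 42.9 at day +2, and their part in these differences was not tested. MMP2sh1 replicate 1 of day −2 stood further from the other 2 of its group than any other library did (chi-square per degree of freedom of 19.3 and 24.6, against 4.74 to 13.1 for all other pairs), and without it the count at day −2 was 6. The counts depend on single libraries. The 5 of day −2 became 2 without control replicate 1, MMP2sh1 replicate 2 or MMP2sh1 replicate 3, and 3 without control replicate 3. The 13 of day 0 became 8 without MMP2sh1 replicate 1 or 2, with 7 and 8 of them lower, and the 7 of day +2 became 4 without control replicate 2 or 3. In every alternative fit, 1, 4 and 4 of the calls at the 3 days held.

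LAMP2, a membrane glycoprotein needed for the fusion of autophagosomes with lysosomes, was the one gene lower in MMP2sh1 at all 3 days. At day −2 it was at 164, 172 and 160.03 CPM in control and 133, 138 and 139 in MMP2sh1, a log2 fold change of −0.28 (SE 0.05, adjusted p = 0.0011). At day 0 it was at 168, 167 and 157 and 143, 137 and 137 CPM (−0.24 (SE 0.04, adjusted p = 0.00011)), and at day +2 at 211, 198 and 188 and 164, 166 and 181 CPM (−0.23 (SE 0.06, adjusted p = 0.0052)). At each day every MMP2sh1 library lay below every control library, and the call held in all alternatives. In MMP2sh2 the level was 144, 158 and 143 CPM at day −2 (−0.17 (SE 0.06, adjusted p = 0.045)), a call that was lost without any one control library, MMP2sh2 replicate 1 or MMP2sh2 replicate 3 (−0.22 to −0.14) and with median-of-ratios scaling. At days 0 and +2 the MMP2sh2 differences were −0.12 (SE 0.05) and −0.08 (SE 0.06), which did not pass.

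The lower genes of MMP2sh1 at day 0 were spread over the roles, with 3 of the 4 membrane glycoproteins, all 3 proteases and 6 others. TPP1 was at 120.02, 125 and 120.2 CPM in control and 95.9, 102 and 108 in MMP2sh1 (−0.26 (SE 0.05, adjusted p = 0.00021)). CTSA, a carboxypeptidase that protects NEU1, was at 101, 100.2 and 106 and 85.4, 84.9 and 94.4 CPM (−0.22 (SE 0.05, adjusted p = 0.0021)), and NPC2 at 256, 238 and 252 and 207, 212 and 219.7 CPM (−0.23 (SE 0.04, adjusted p = 0.00014)). None of these groups overlapped, and with LAMP2 these are the 4 calls that held in every alternative. LAMP1 (−0.14 (SE 0.04)) lost its call without MMP2sh1 replicate 1 or 2 (−0.18 to −0.11) and with all 27 libraries in 1 fit, and CTSD (−0.23 (SE 0.06)) without control replicate 3 (−0.27 to −0.17).

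The largest fall at day 0 was that of MCOLN1, the calcium channel of the lysosomal membrane, at 12.9996, 13.1 and 13.6 CPM in control and 8.85, 10.01 and 11.5 in MMP2sh1 (−0.39 (SE 0.11, adjusted p = 0.0095)). The groups did not overlap, but the call was lost without MMP2sh1 replicate 1 (−0.49 to −0.30). NAGLU (−0.29 (SE 0.08)) lost it without MMP2sh1 replicate 2 (−0.35 to −0.22), and ARSA (−0.27 (SE 0.08)) without control replicate 3 or MMP2sh1 replicate 1 or 3 (−0.36 to −0.20). HGSNAT was the one gene higher, by 0.31 (SE 0.09), and lost its call without control replicate 2 or MMP2sh1 replicate 2 (0.24 to 0.36).

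At day −2, the other 4 calls in MMP2sh1 all ended with 1 library left out. FUCA1 was at 12.3, 12.9 and 11.99 CPM in control and 13.6, 18.8 and 17.9 in MMP2sh1 (0.44 (SE 0.11, adjusted p = 0.012)), with no overlap, and was not called without MMP2sh1 replicate 2 (0.34, adjusted p = 0.11) or replicate 3 (0.39, adjusted p = 0.056). CLCN7, the chloride and proton exchanger of lysosomes, was higher by 0.26 (SE 0.07), a call lost without control replicate 1 or MMP2sh1 replicate 2 or 3 (0.21 to 0.33). ATP6V0D1 was higher by 0.22 (SE 0.06) and MAN2B1, an alpha-mannosidase, lower by −0.23 (SE 0.08). Their calls were lost without control replicate 1 or 3, and that of ATP6V0D1 without MMP2sh1 replicate 3 and that of MAN2B1 without any MMP2sh1 library (0.18 to 0.25 and −0.29 to −0.18). TFEB differed by 0.50 (SE 0.18), which did not pass (95% interval 0.14 to 0.86).

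At day +2, 4 genes differed from control in MMP2sh1 in every alternative, which were IDS, NPC2, FUCA1 and LAMP2. IDS was at 272, 257 and 253 CPM in control and 319, 347 and 373 in MMP2sh1 (0.41 (SE 0.06, adjusted p = 3.3e-06)). NPC2 was at 475, 519 and 505 and 396, 385 and 403 CPM (−0.34 (SE 0.05, adjusted p = 1.1e-05)), and FUCA1 at 42.3, 47.3 and 50.6 and 36.6, 38.8 and 36.8 CPM (−0.32 (SE 0.07, adjusted p = 0.0024)). IDS was thus higher, and the other 3 lower, without overlap of the groups. ARSB, a sulfatase of dermatan sulfate, was higher by 0.29 (SE 0.08), a call lost without control replicate 2 or 3 or MMP2sh1 replicate 2 (0.23 to 0.35). CTSA (−0.17 (SE 0.06)) and ASAH1, the acid ceramidase (−0.17 (SE 0.06)), were lower, and both were lost without control replicate 2 or 3. CTSA was also lost without MMP2sh1 replicate 1 or 3, and ASAH1 without MMP2sh1 replicate 2 or 3 (−0.21 to −0.15 and −0.20 to −0.16), and both with the replicate number as a block.

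In MMP2sh2, 12 of the 39 differed from control at day −2 (30.8%, against 11.0% of all genes), 10 higher (25.6%, against 4.71%) and 2 lower (background 6.33%), with a median of 0.09. At day 0 there were 6 (15.4%, against 12.9%), 4 higher (background 7.07%) and 2 lower (background 5.81%), and at day +2 there were 4 (10.3%, against 6.32%), 2 higher (background 2.89%) and 2 lower (background 3.43%). These counts also depend on single libraries. The 12 of day −2 became 2, 4 and 5 without control replicate 1, 2 and 3, and 6 and 4 without MMP2sh2 replicate 2 and 3. The 6 of day 0 became 2 without control replicate 2 and 1 without MMP2sh2 replicate 2. The 4 of day +2 became 1 without control replicate 2, control replicate 3 or MMP2sh2 replicate 1, 2 without MMP2sh2 replicate 2 and 7 without MMP2sh2 replicate 3. In every alternative, 2, 1 and 1 of these calls held.

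GAA, which breaks down glycogen, was the one gene higher in MMP2sh2 at all 3 days. It was at 111, 113 and 114 CPM in control and 137, 136 and 165 in MMP2sh2 at day −2 (0.35 (SE 0.06, adjusted p = 0.00062)), and at 109.7, 118 and 122 and 137, 140.4 and 131 CPM at day 0 (0.22 (SE 0.05, adjusted p = 0.0019)). At day +2 it was at 164, 157 and 162 and 185, 189.6 and 177 CPM (0.20 (SE 0.05, adjusted p = 0.015)). Groups did not overlap at any day. The first 2 calls held in every alternative, and the third was lost without control replicate 2 or 3 or MMP2sh2 replicate 1 or 2 (0.18 to 0.24) and with all 27 libraries in 1 fit. In MMP2sh1, GAA differed from control by −0.06 (SE 0.07), −0.04 (SE 0.05) and 0.07 (SE 0.06) at the 3 days, none of which passed.

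The other call of MMP2sh2 at day −2 that held throughout was NPC2, at 189.7, 184 and 199.7 CPM in control and 233, 235 and 256 in MMP2sh2 (0.32 (SE 0.05, adjusted p = 0.00051)). IDUA had the largest difference, 3.26, 3.24 and 3.19 CPM in control against 5.13, 4.68 and 5.25 (0.62 (SE 0.17, adjusted p = 0.023)), without overlap. Its value hardly moved with 1 library left out (0.59 to 0.66), but the call was lost without any one control library, MMP2sh2 replicate 1 or MMP2sh2 replicate 3. SGSH, a sulfamidase of heparan sulfate (0.40 (SE 0.10)), and MCOLN1 (0.33 (SE 0.11)) both lost their calls without control replicate 1 or 2 or MMP2sh2 replicate 2 or 3 (0.33 to 0.49 and 0.24 to 0.39). CLCN7 was higher here as in MMP2sh1, by 0.21 (SE 0.06), a call lost without control replicate 1 or 2 or MMP2sh2 replicate 2 (0.19 to 0.24). IDS was lower, by −0.18 (SE 0.05), a call lost without any one control library or MMP2sh2 replicate 1 or 3 (−0.21 to −0.14).

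At day 0, MMP2sh2 had higher GLA (0.25 (SE 0.07)), NPC1 (0.23 (SE 0.06)) and CD63 (0.15 (SE 0.05)) beside GAA, and lower ASAH1 (−0.19 (SE 0.05)) and IDS (−0.15 (SE 0.05)). All 5 lost their calls without MMP2sh2 replicate 2, with values from 0.19 to 0.30 for GLA, 0.17 to 0.27 for NPC1, 0.08 to 0.20 for CD63, −0.23 to −0.15 for ASAH1 and −0.17 to −0.13 for IDS over the fits with 1 library left out. All but NPC1 also lost them without control replicate 2. ASAH1 and IDS lost them without control replicate 1 or MMP2sh2 replicate 1, and CD63 without MMP2sh2 replicate 3. CD63 and IDS also lost them with all 27 libraries in 1 fit.

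At day +2, FUCA1 had the largest difference of MMP2sh2, 42.3, 47.3 and 50.6 CPM in control against 30.98, 33.3 and 31.3 (−0.55 (SE 0.08, adjusted p = 1.1e-06)). The groups were apart and the call held in every alternative. IDS was higher, 272, 257 and 253 CPM in control against 297, 286 and 301 (0.18 (SE 0.05, adjusted p = 0.021)), a call lost without control replicate 2 or 3 or MMP2sh2 replicate 1 (0.16 to 0.21). ASAH1 was lower, 107, 112 and 112 against 89.7, 91.9 and 101 CPM (−0.22 (SE 0.06, adjusted p = 0.015)), lost without control replicate 2 or 3 or MMP2sh2 replicate 1 or 2 (−0.26 to −0.19). FUCA1 and ASAH1 lower and IDS higher are thus called in both lines at day +2, against the same control libraries. The share of all genes called alike in both lines at that day is not given here.

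**Figure D4:**
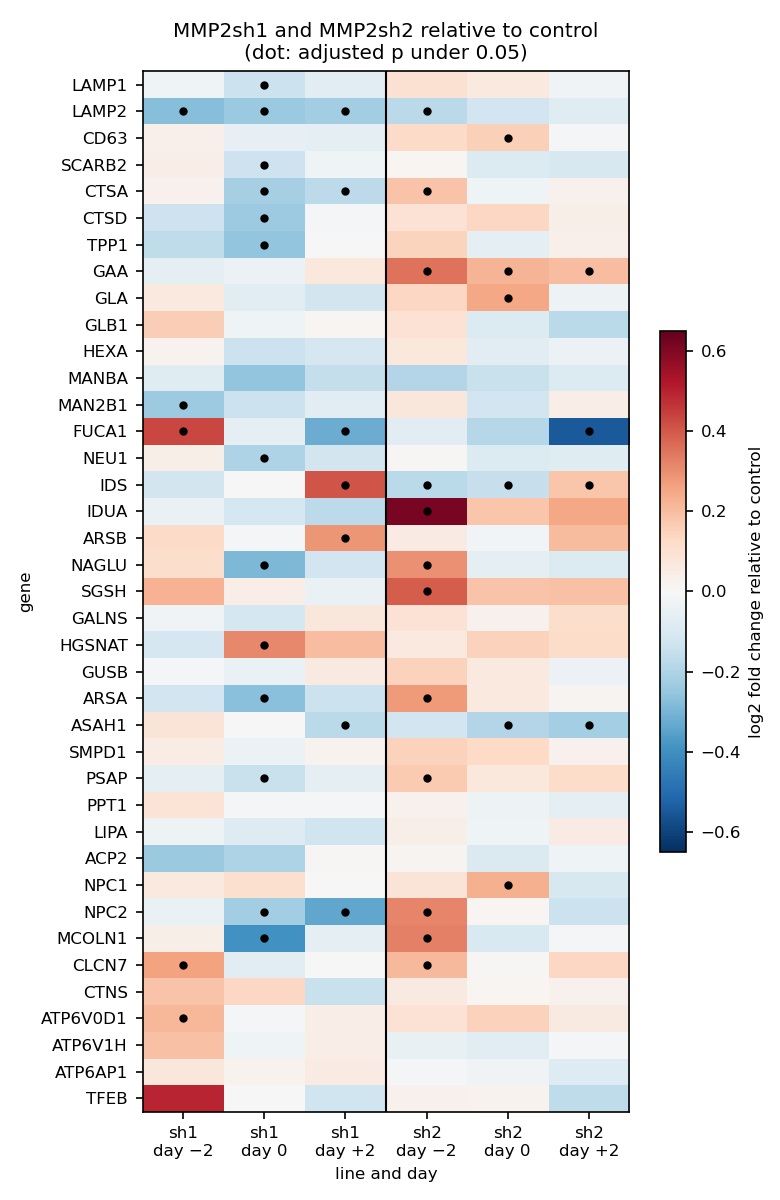
Log2 fold change relative to control (colour, red higher and blue lower) of the 39 genes (rows) in MMP2sh1 and MMP2sh2 at each day (columns), with a dot where the adjusted p is under 0.05. The MMP2sh1 column of day 0 holds 12 dots on blue, the MMP2sh2 column of day −2 holds 10 on red, and LAMP2 and GAA are dotted at all 3 days of 1 line.

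Set against each other directly, without the control libraries, the lines differed most at day 0. There 14 of the 39 genes differed (35.9%, against 18.5% of all genes), 12 lower in MMP2sh1 (30.8%, against 9.62%) and 2 higher (background 8.90%). 8 of the 14 held in every alternative, all lower in MMP2sh1, which were LAMP1, CD63, CTSD, TPP1, GAA, GLA, PSAP and NPC2. CTSD was at 57.7, 59.5 and 63.6 CPM in MMP2sh1 and 77.5, 75.96 and 80.6 in MMP2sh2 (−0.37 (SE 0.05, adjusted p = 4.4e-06)), and GLA at 32.6, 30.8 and 33.2 and 39.5, 41.1 and 40.6 CPM (−0.32 (SE 0.07, adjusted p = 0.00048)). PSAP was at 733, 764 and 809.9 and 881, 908 and 891 CPM (−0.21 (SE 0.03, adjusted p = 1.8e-05)), and LAMP1 at 416, 431 and 458 and 488, 523 and 495 CPM (−0.20 (SE 0.04, adjusted p = 0.00013)). In none of these pairs did the groups overlap. The 2 genes higher in MMP2sh1 were ASAH1 (0.19 (SE 0.05)), lost without MMP2sh2 replicate 2 (0.15 to 0.23), and IDS (0.15 (SE 0.04)), lost without MMP2sh1 replicate 1 or 3 or MMP2sh2 replicate 2 (0.12 to 0.19) and with all 27 libraries in 1 fit.

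At day −2 the lines differed at 8 of the 39 genes (20.5%, against 10.7% of all genes), 6 lower in MMP2sh1 (background 5.69%) and 2 higher (background 5.01%). GAA (−0.42 (SE 0.08, adjusted p = 0.00035)), ARSA (−0.41 (SE 0.09, adjusted p = 0.0025)) and NPC2 (−0.36 (SE 0.06, adjusted p = 0.00012)) were lower in every alternative. The count became 5 without MMP2sh1 replicate 1 or MMP2sh2 replicate 3 and 4 without MMP2sh2 replicate 2, and among the calls lost there was that of FUCA1 (0.50 (SE 0.12), 0.40 to 0.63). At day +2 they differed at 5 genes (12.8%, against 7.86%), 4 lower in MMP2sh1 (background 3.27%) and 1 higher (background 4.59%). IDUA (−0.42 (SE 0.11)), NPC2 (−0.20 (SE 0.05)), CTSA (−0.20 (SE 0.06)) and PSAP (−0.17 (SE 0.04)) were lower and IDS (0.23 (SE 0.06)) higher. None of the 5 held in every alternative, and the count became 2 without MMP2sh1 replicate 2 or 3 or MMP2sh2 replicate 1 or 2. MMP2 itself was lower in MMP2sh1 than in MMP2sh2 at each day, by −1.84, −1.41 and −1.52 on the log2 scale.

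Whether the rise from day −2 to day +2 differed between a hairpin line and control was tested as an interaction over 12 libraries. It did so for 4 of the 39 genes in MMP2sh1 (10.3%, against 7.40% of all genes tested) and for 5 in MMP2sh2 (12.8%, against 4.98%). In MMP2sh1, 1 of these was above 0 (background 4.52%) and 3 below (background 2.88%), and in MMP2sh2, 1 above (background 2.71%) and 4 below (background 2.28%). FUCA1 and NPC2 rose less than in control in both lines and IDS rose more. IDS, NPC2 and, for MMP2sh1, FUCA1 held in every alternative. The 4 of MMP2sh1 became 8 without MMP2sh1 day −2 replicate 1. The 5 of MMP2sh2 became 2 without control day +2 replicate 3, and 3 without control day −2 replicate 1, control day +2 replicate 1 or 2, MMP2sh2 day −2 replicate 3 or MMP2sh2 day +2 replicate 1 or 3. For TFEB the interaction was −0.62 (SE 0.21) in MMP2sh1 and −0.20 (SE 0.21) in MMP2sh2, and neither passed (95% intervals −1.03 to −0.22 and −0.62 to 0.22).

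Among the 118 genes of the further lists, few differed from control by more than 1.5-fold. LAPTM5 was higher in MMP2sh1 at all 3 days, from 0.5702 ± 0.243 to 1.59 ± 0.564 CPM at day −2 (1.44 (SE 0.41)), by 0.83 (SE 0.28) at day 0 and by 0.82 (SE 0.16) at day +2. M6PR, the smaller of the mannose 6-phosphate receptors, was lower in MMP2sh1 at day −2, at 193, 202 and 186 CPM in control and 122, 129 and 128 in MMP2sh1 (−0.62 (SE 0.05, adjusted p = 1.8e-08)). ZKSCAN3 was lower in MMP2sh1 at day 0 (−0.77 (SE 0.13, adjusted p = 3e-05)) and ABCB9 lower in MMP2sh2 at day 0 (−0.72 (SE 0.09, adjusted p = 5e-07)). ATP6V0A1 was lower in MMP2sh2 at day +2, at 1.78 ± 0.574 CPM in control and 0.527 ± 0.157 in MMP2sh2 (−1.74 (SE 0.38, adjusted p = 0.002)), from low counts.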

How the data were processed

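Poly(A) RNA was sequenced from 27 libraries, 3 independent replicates of each line and day. Per the labels and the methods, the authors used Trim Galore 0.6.0 for trimming, STAR 2.7.3a for alignment to hg19, Samtools for the removal of low-quality alignments and HTSeq 2.0.0 for counting over exons (minimum alignment quality 10, no strand, union mode). The annotation is not given in the sources used here. The deposited values are raw read counts per gene symbol, without normalization. Union mode discards reads shared by overlapping genes, and strand was not used, so such genes are uncertain. The 5 HTSeq summary lines (16.8% to 19.1% of the total) were left out. No pair of replicates agreed within sampling noise (chi-square per degree of freedom 4.74 to 24.6).

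Each comparison was tested with the quasi-likelihood test of edgeR 4.0.16 (R 4.3.3) on its own 6 libraries, or 12 for an interaction. Scaling was TMM, genes were filtered with filterByExpr (count 10, total 15), p-values were adjusted by Benjamini-Hochberg over all genes tested, and a call means an adjusted p under 0.05. SE is the log2 fold change divided by the square root of F, and 95% intervals are normal intervals from it. Levels are CPM with TMM factors over all libraries. Named were TFEB, LAMP1, LAMP2, CTSD and NPC1, the 5 largest called rises and falls of each comparison, genes called at all 3 days or in both lines, genes called in an interaction, and from each further list at most the 3 largest called rises and falls in control and those past 1.5-fold in a hairpin line. Other genes are named where a group is listed. The 39 genes and the lists were chosen with earlier results of these data known. The alternatives were DESeq2 1.42.0, median-of-ratios scaling, no filter, at least 10 counts in every library, all 27 libraries in 1 fit, the replicate number as a block, and each library left out in turn. The fits were tested on simulated data. The lowest count of the 39 genes in any library was 65. The p-values set a difference between groups against the spread between the 3 replicates of a group. They do not take in the spread between independently made lines.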

Additional observations from a re-analysis of the deposited data

Results flagged for a closer look

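For 9 results, the change from day −2 to day +2 in a hairpin line differed from that in control by the test of the difference itself (edgeR's quasi-likelihood test of the interaction). The values are log2 fold changes in the hairpin line minus those in control.

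FUCA1 rose by 1.90 in control, 1.14 in MMP2sh1 and 1.42 in MMP2sh2. The difference was −0.76 (SE 0.14, adjusted p = 0.00046) in MMP2sh1 and −0.48 (SE 0.12, adjusted p = 0.014) in MMP2sh2, and that of MMP2sh2 lost its call without control day +2 replicate 3 (−0.54 to −0.41 over the fits with 1 library left out). In MMP2sh1 both ends moved, since FUCA1 was above control at day −2 and below it at day +2.

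IDS rose by 0.56 in control, 1.09 in MMP2sh1 and 0.92 in MMP2sh2. The difference was 0.53 (SE 0.08, adjusted p = 3.4e-05) in MMP2sh1 and 0.35 (SE 0.07, adjusted p = 0.002) in MMP2sh2, and both held in every alternative. The overlap of IDS exons with another annotated gene, given above, touches this result, and its part was not tested.

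NPC2 rose by 1.37 in control, 1.07 in MMP2sh1 and 0.91 in MMP2sh2. The difference was −0.30 (SE 0.07, adjusted p = 0.01) in MMP2sh1 and −0.46 (SE 0.07, adjusted p = 7.2e-05) in MMP2sh2, and both held in every alternative. The 2 lines came to it differently, as NPC2 in MMP2sh2 was above control at day −2 and at −0.14 (SE 0.05) at day +2, while in MMP2sh1 it was at −0.04 (SE 0.05) at day −2 and below control at day +2.

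The 3 other differences were close to the threshold. That of ASAH1 in MMP2sh1 was −0.26 (SE 0.08, adjusted p = 0.038), lost without any control day −2 library, control day +2 replicate 2 or 3, MMP2sh1 day −2 replicate 3 or MMP2sh1 day +2 replicate 2 or 3 (−0.28 to −0.24), without a low-count filter and with the replicate number as a block. That of GLB1, the beta-galactosidase, in MMP2sh2 was −0.27 (SE 0.08, adjusted p = 0.041), lost without control day −2 replicate 1 or 2, any control day +2 library, MMP2sh2 day −2 replicate 2 or 3 or MMP2sh2 day +2 replicate 1 or 3 (−0.31 to −0.22), and likewise without a low-count filter and with the block. That of NAGLU in MMP2sh2 was −0.39 (SE 0.11, adjusted p = 0.034), lost without control day −2 replicate 1 or 3, any control day +2 library, MMP2sh2 day −2 replicate 3 or MMP2sh2 day +2 replicate 1 or 3 (−0.45 to −0.30), and with all 27 libraries in 1 fit.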

How the results depend on the processing

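No call of the 39 genes changed sign in any alternative. The counts of called genes over time within a line, and that of MMP2sh1 against MMP2sh2 at day 0, stayed within 1.5 times under every alternative. Elsewhere, the 4 calls of MMP2sh2 against control at day +2 became 7 with DESeq2, and the 8 calls of MMP2sh1 against MMP2sh2 at day −2 became 14 with all 27 libraries in 1 fit and 16 with the replicate number as a block. With 1 library left out, the counts against control ranged from 2 to 6 (MMP2sh1, day −2), 8 to 13 (day 0) and 4 to 8 (day +2), and from 2 to 9 (MMP2sh2, day −2), 1 to 7 (day 0) and 1 to 7 (day +2). For MMP2sh1 against MMP2sh2 they ranged from 4 to 9 at day −2 and 2 to 5 at day +2, and for the interactions from 3 to 8 (MMP2sh1) and 2 to 5 (MMP2sh2). Leaving out a library leaves 2 in its group, and beyond that the cause was not tested. Of the calls on single genes, 217 of 1380 were lost with a library left out, 15 of 221 with all 27 libraries in 1 fit, 7 with the block, 6 without a filter, 5 with DESeq2, 1 with median-of-ratios scaling and 1 with at least 10 counts in every library. Calls over all genes moved with single libraries too. The lowest counts, each under the full count by a factor above 1.5, ran from 2184 to 1321 in MMP2sh1 at day −2 (without control replicate 1), and in MMP2sh2 from 2080 to 728 at day −2 (without control replicate 1), from 2456 to 1509 at day 0 (without MMP2sh2 replicate 2) and from 1222 to 679 at day +2 (without control replicate 3). For MMP2sh1 against MMP2sh2 they fell from 2009 to 1208 at day −2 (without MMP2sh1 replicate 1) and from 1527 to 885 at day +2 (without MMP2sh2 replicate 1), and for the interactions, without control day +2 replicate 3, from 1520 to 934 (MMP2sh1) and from 1029 to 541 (MMP2sh2). In 5 of these 8 comparisons, leaving out another library also gave a fall of that size. Median-of-ratios scaling moved the median of all genes by at most 0.0175 on the log2 scale.

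Over all genes, same-numbered libraries showed little shared deviation. Over 42 pairs, the correlation of their deviations from the group means was −0.081 to 0.149 (median −0.003). It was over 0.1 in 2, and in no comparison were all pairs over 0.1, so the numbers were not taken to pair the samples. Single genes can differ from this. MMP2 rose from replicate 1 to 3 in each line at days −2 and 0, as in control at day −2 (222, 225.9 and 244 CPM), but in no line at day +2. The lowest count of any of the 39 genes in a library was 65 (IDUA).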
